A study of Mus musculus with 15 samples.

Results

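The voltage-gated sodium and calcium channel genes described here are 32 of the 27179 gene IDs in the deposited count table. They were chosen by name, as rows whose NCBI gene ID matched the mouse symbol of a pore or auxiliary subunit, with no measured value in the rule, although earlier results of these data were known when the list was drawn up. They comprise 7 sodium channel pore genes, 3 sodium channel β subunit genes, 8 calcium channel pore genes, 4 α2δ genes, 4 calcium channel β genes and 6 genes of the γ family. Other genes of these families were not analysed here. Of the 32, 31 passed the filter on low counts. Scn4a, the pore gene of skeletal muscle, had 0 to 2 counts per library and was not tested.

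Brain RNA was measured in mice aged 12 months of both sexes. The transgenic group (TG) held 7 animals, 4 female and 3 male, homozygous for a PLP-α-synuclein transgene in which the proteolipid protein promoter, active in oligodendrocytes, drives human α-synuclein. The wild-type group (WT) held 8 non-transgenic mice of the C57Bl/6 background, 4 female and 4 male, matched for age and sex. Such mice serve to model multiple system atrophy, a disease with α-synuclein inclusions in oligodendrocytes. RNA came from frozen hemispheres, so neurons and glia were measured together, and a lower level from fewer cells cannot be told apart from a lower level per cell. Each genotype-and-sex group carries its own number in the titles, so a litter or cage effect cannot be told apart from the groups. Expression of the transgene was not analysed here.

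Voltage-gated sodium channels open on depolarization and carry the upstroke of the action potential. A single pore protein forms the channel, and small β subunits change its gating and its placement at the axon initial segment and nodes of Ranvier. Calcium channels turn depolarization into calcium entry for transmitter release, dendritic signalling and pacemaking. Their pore proteins are trafficked and tuned by extracellular α2δ and cytoplasmic β subunits, while most brain γ proteins, the TARPs, are better known as partners of AMPA receptors.

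The libraries held 15170772 to 35850998 counts. Although all are labelled as hemisphere, they did not share one regional make-up. Clustering on 6 lists of region markers, which hold no channel gene and do not use genotype, gave 4 classes. The cerebellum-marker class was 1 library, TG female 3. The hindbrain-marker class held TG female 1 and 4, WT male 3 and WT female 3. The cortex-marker class held TG male 4, WT male 4 and WT female 2. The olfactory-marker class held TG female 2, TG male 1 and 3, WT male 1 and 2, and WT female 1 and 4. Each class is called by its markers and is not a dissected region, and since the classes were formed from these same libraries, differences between them are described with no test. Other markers moved with the classes. The summed level of 10 oligodendrocyte markers was 17919 to 23242 CPM (counts scaled to the size of the library) in hindbrain-marker libraries and 1896 to 5985 CPM in the other 11. That of 10 general neuron markers was 9946 to 10932 CPM in hindbrain-marker, 10250 to 13006 CPM in cortex-marker and 7400 to 8273 CPM in olfactory-marker libraries. The part of these markers in the differences below was not tested.

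Channel genes were compared between classes, and the plot of all channel genes by library shows their levels. A gene is counted as separate when no library of one class lies within the range of the other. Between hindbrain- and olfactory-marker libraries 20 of 31 genes were separate (64.5%), 6 higher and 14 lower in hindbrain-marker libraries, beside 50.4% of all 17151 genes tested. Taken by direction, 19.4% of the channel genes were higher against a background of 24.8%, and 45.2% were lower against 25.7%. The median log2 difference was -0.52 over the channel genes and 0.01 over all genes. Between hindbrain- and cortex-marker libraries 21 of 31 were separate (67.7%), beside 59.1% of all genes. In hindbrain-marker libraries 5 were higher (16.1%, background 29.8%) and 16 lower (51.6%, background 29.3%), with medians of -0.58 over the channel genes and 0.01 over all genes. Between cortex- and olfactory-marker libraries 17 of 31 were separate (54.8%), beside 37.8% of all genes. In cortex-marker libraries 9 were higher (29.0%, background 19.9%) and 8 lower (25.8%, background 17.9%). The count of 17 stayed the same when WT male 2, which has both olfactory and cortical markers, was left out. Leaving out a library narrows the range of its class, so the count could hardly fall, and this does not show that it is stable. The count does depend on WT male 2 not being placed in the cortex-marker class. With classes taken from 4 single marker genes that library joins the cortex-marker class and the count is 2 of 31, beside 12.8% of all genes under the same classes.

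**Figure D1:**
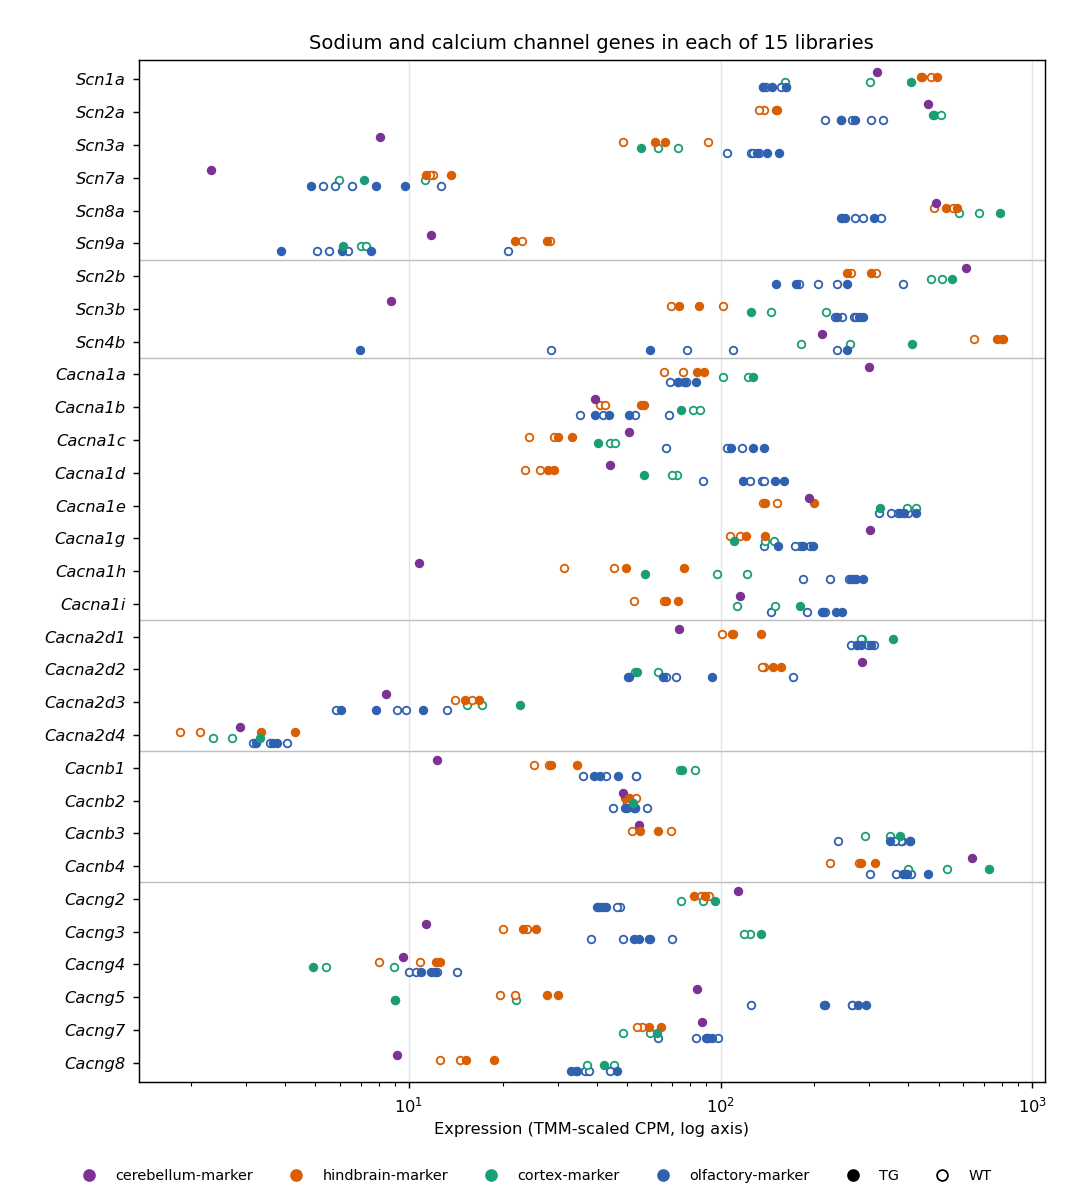
TMM-scaled CPM on a log axis of each of the 31 tested channel genes in each of 15 libraries, grouped by subunit family from top to bottom. Colours mark the library class, filled points TG and open points WT libraries. Cacnb2 stays between 45.1 and 58.1 CPM in every library, while Scn4b runs from 6.97 to 808 CPM.

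Among the sodium channel pore genes, hindbrain-marker libraries had more Scn1a and less Scn2a. Scn1a, the main channel of fast-spiking neurons, was at 440, 495, 443 and 474 CPM in the hindbrain-marker libraries TG female 1, TG female 4, WT male 3 and WT female 3. It was at 409, 160 and 300 CPM in the cortex-marker libraries TG male 4, WT male 4 and WT female 2, and at 137 to 163 CPM with a median of 146 CPM in the 7 olfactory-marker libraries. The hindbrain-marker libraries thus lay above all others, and WT male 4 lay within the olfactory-marker range. Scn2a, a channel of excitatory neurons and unmyelinated axons, was at 152, 150, 138 and 133 CPM in the same hindbrain-marker libraries. It was at 482, 484 and 508 CPM in cortex-marker libraries and at 217 to 332 CPM, median 264 CPM, in olfactory-marker libraries. The 3 classes did not overlap for Scn2a.

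Scn8a, the main channel of mature initial segments and nodes, was at 529, 571, 484 and 556 CPM in hindbrain-marker libraries, against 790, 580 and 675 CPM in cortex-marker and 243 to 327 CPM in olfactory-marker libraries. Hindbrain- and cortex-marker libraries were both above the olfactory-marker range and did not overlap each other. Scn3a, which is best known from the developing brain, averaged 67.0 ± 17.7 CPM in hindbrain-marker (SD, n = 4), 63.9 ± 8.86 CPM in cortex-marker (n = 3) and 131 ± 15.1 CPM in olfactory-marker libraries (n = 7). The same olfactory-marker libraries had 538 to 1268 CPM of 10 neuroblast markers, against 74 to 192 CPM in hindbrain- and cortex-marker libraries. Of these markers, Dlx2 and Sp8 also belong to the olfactory list used to form the classes. The part of the neuroblast markers in the Scn3a level was not tested. Scn9a, known for its role in pain-sensing neurons, was at 21.9, 27.8, 28.4 and 23.1 CPM in hindbrain-marker libraries, and at 6.14 to 7.27 CPM in cortex-marker libraries. In 6 olfactory-marker libraries Scn9a was at 3.90 to 7.57 CPM, and WT male 1 had 20.7 CPM. An annotated non-coding gene, Gm13629, overlaps Scn9a with counts equal to 71.1% of its own, and since no source used here gives the strand setting of the counting, the reads of these genes may be shared. Scn7a, which encodes a sodium-sensing channel, averaged 12.2 ± 1.04 CPM in hindbrain-marker, 8.14 ± 2.80 CPM in cortex-marker and 7.54 ± 2.80 CPM in olfactory-marker libraries.

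Genes of different length can be compared as CPM per kilobase of exon. On this scale Scn1a made up 43.4% of the summed level of the sodium pore genes in hindbrain-marker libraries, 22.0% in cortex-marker and 20.9% in olfactory-marker libraries. Scn2a made up 11.8%, 34.2% and 32.7% in the same order of classes, and Scn8a 35.4%, 37.7% and 27.3%. Summed over the pore genes, the level was 95.8 ± 4.06 CPM per kilobase in hindbrain-marker, 115 ± 16.7 in cortex-marker and 64.0 ± 4.83 in olfactory-marker libraries. Scn3a, Scn2a, Scn1a, Scn9a and Scn7a lie in this order on chromosome 2 (GRCm38.p6), Scn3a at chr2:65457118-65567591 and Scn7a at chr2:66673426-66784910. Genes of this cluster did not follow one order of classes, since Scn1a was highest in hindbrain-marker, Scn2a in cortex-marker and Scn3a in olfactory-marker libraries.

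**Figure D2:**
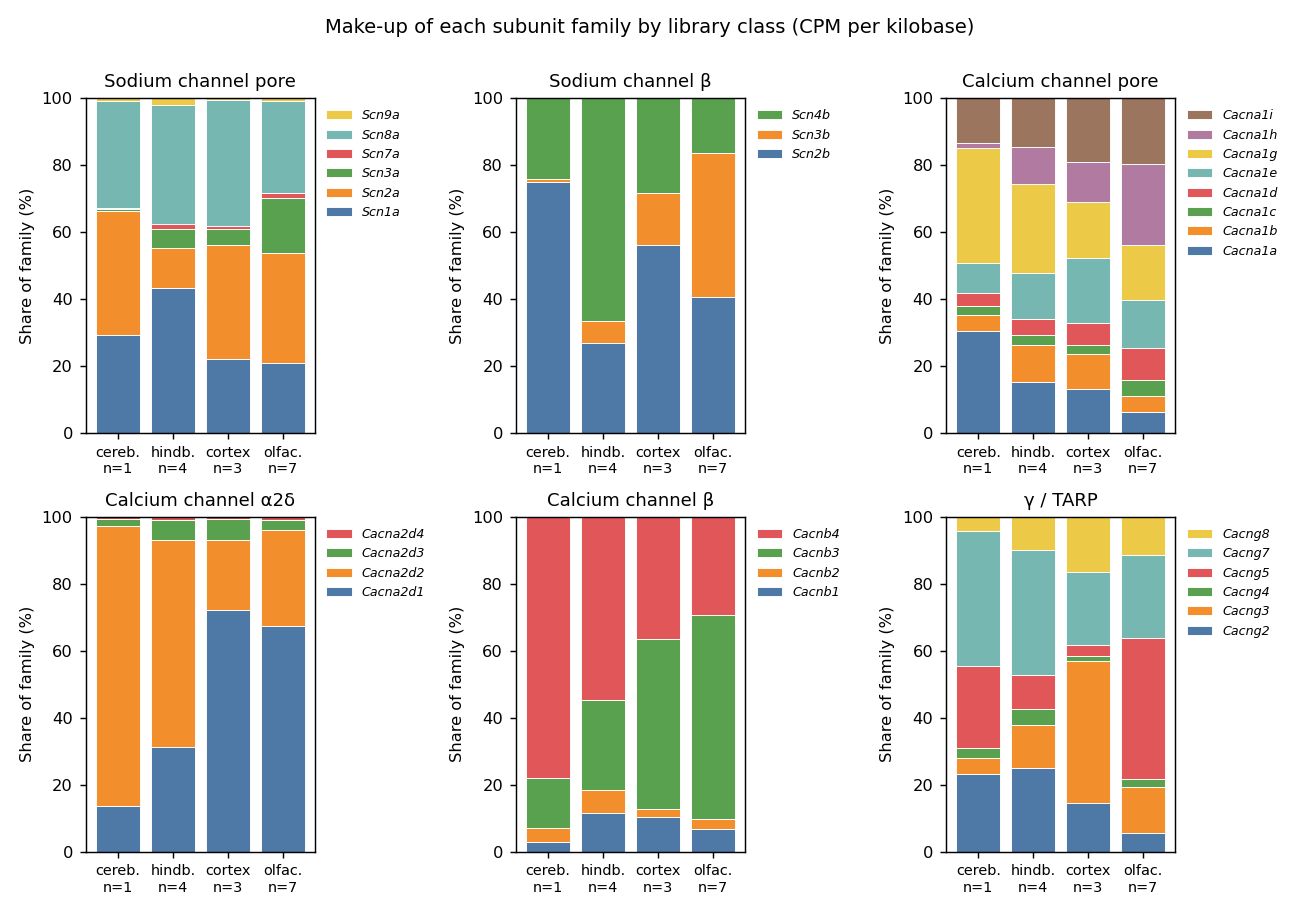
Share of each gene (%) in the summed CPM per kilobase of its subunit family, as the mean over the libraries of each class. Scn4b fills 66.6% of the sodium β bar in hindbrain-marker libraries against 16.5% in olfactory-marker libraries.

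Among the sodium channel β genes, Scn4b was the gene that set the hindbrain-marker libraries apart most. Its product is linked to the resurgent current that allows high firing rates. Scn4b was at 768, 808, 652 and 800 CPM in the hindbrain-marker libraries TG female 1, TG female 4, WT male 3 and WT female 3. It was at 411, 181 and 259 CPM in cortex-marker libraries TG male 4, WT male 4 and WT female 2. In olfactory-marker libraries it was at 255, 59.3 and 6.97 CPM in TG female 2, TG male 1 and TG male 3, and at 236, 28.6, 78.0 and 110 CPM in WT male 1, WT male 2, WT female 1 and WT female 4. The hindbrain-marker libraries lay above all others, and the olfactory-marker libraries spread widely in both genotypes. The mean log2 difference of hindbrain- minus olfactory-marker libraries was 3.49. Within the olfactory-marker class the 2 libraries highest in Scn4b also had the highest summed level of 10 striatal markers, 1655 CPM in TG female 2 and 1581 CPM in WT male 1. The striatal sum was 377 to 992 CPM in the other 5, including 444 CPM in TG male 3, and its part in the Scn4b spread was not tested.

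Scn2b lies next to Scn4b, with 8.55 kb between the annotated genes, yet the order of classes differed. Scn2b, whose product is bound to the pore through a disulfide bond, averaged 284 ± 30.2 CPM in hindbrain-marker, 514 ± 39.8 CPM in cortex-marker and 226 ± 78.8 CPM in olfactory-marker libraries. Scn3b, another β gene on the same chromosome, averaged 82.4 ± 14.5, 162 ± 48.3 and 260 ± 21.4 CPM in these classes. Thus each of the 3 β genes was highest in a different one of these classes. Per kilobase, Scn4b made up 66.6% of the β sum in hindbrain-marker libraries, Scn2b 56.2% in cortex-marker and Scn3b 42.8% in olfactory-marker libraries, where Scn2b had 40.6% and led in 3 of 7 libraries. The RefSeq promoter windows of the neighbours, 250 bases before to 50 after the start (GRCm38.p6, + strand), are shown because they differ in base composition, with CG dinucleotides in capitals. The windows are chr9:45117626-45117925 for Scn2b and chr9:45138374-45138673 for Scn4b.
Scn2b: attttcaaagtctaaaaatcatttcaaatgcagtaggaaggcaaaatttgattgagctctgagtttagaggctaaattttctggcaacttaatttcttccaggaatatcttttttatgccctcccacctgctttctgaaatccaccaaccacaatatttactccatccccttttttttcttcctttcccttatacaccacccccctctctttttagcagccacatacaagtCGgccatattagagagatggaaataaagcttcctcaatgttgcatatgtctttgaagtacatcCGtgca
Scn4b: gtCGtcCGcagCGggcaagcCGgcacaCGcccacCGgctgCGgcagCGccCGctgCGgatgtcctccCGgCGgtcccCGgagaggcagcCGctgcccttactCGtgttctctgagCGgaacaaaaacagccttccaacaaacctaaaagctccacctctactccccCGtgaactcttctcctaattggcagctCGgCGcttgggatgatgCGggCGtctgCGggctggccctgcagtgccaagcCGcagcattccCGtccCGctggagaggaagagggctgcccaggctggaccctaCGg
The Scn2b window holds 2 CG and the Scn4b window 26. Of 32851 windows of this length, 85.9% hold at least 2 and 16.9% at least 26, with a median of 7. CG reads the same on both strands, and no link between these letters and the levels was tested.

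The calcium channel pore genes were mostly lower in hindbrain-marker libraries. Against olfactory-marker libraries none of the 8 was separate and higher there, beside 24.8% of all genes, and 5 were separate and lower, beside 25.7% of all genes. The L-type genes Cacna1c and Cacna1d, whose channels couple depolarization to gene transcription and pacemaking, showed this. Cacna1c was at 33.4, 30.2, 24.2 and 29.1 CPM in hindbrain-marker libraries, 40.5, 44.3 and 45.7 CPM in cortex-marker libraries and 66.7 to 138 CPM, median 108 CPM, in olfactory-marker libraries. Cacna1d was at 29.3, 27.9, 23.6 and 26.4 CPM in hindbrain-marker libraries, 56.8, 72.7 and 69.9 CPM in cortex-marker libraries and 87.5 to 159 CPM, median 136 CPM, in olfactory-marker libraries. The 3 classes did not overlap for either gene. Dcp1b overlaps Cacna1c with counts equal to 10.7% of its own, and Dcp1a and Chdh overlap Cacna1d with 55.9% and 16.1%, so some of these reads may be shared.

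The genes of the presynaptic channels differed less. Cacna1a, the P/Q-type pore gene, averaged 78.4 ± 10.2 CPM in hindbrain-marker, 117 ± 13.5 CPM in cortex-marker and 75.6 ± 4.67 CPM in olfactory-marker libraries. Cacna1b, the N-type gene, averaged 49.0 ± 8.30, 80.7 ± 5.77 and 47.6 ± 10.96 CPM in these classes. For both genes the hindbrain- and olfactory-marker libraries overlapped, and the cortex-marker libraries lay above both. Cacna1e, the R-type gene, averaged 157 ± 29.2, 382 ± 52.0 and 376 ± 32.9 CPM, with only the hindbrain-marker class separate.

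The T-type genes, whose low-voltage channels drive burst firing, were divided differently between classes. Cacna1h was at 76.5, 49.8, 31.5 and 45.5 CPM in hindbrain-marker libraries, 57.2, 121 and 97.4 CPM in cortex-marker libraries and 184 to 286 CPM, median 261 CPM, in olfactory-marker libraries. Cacna1i averaged 64.7 ± 8.43 CPM in hindbrain-marker, 147 ± 33.1 CPM in cortex-marker and 208 ± 33.2 CPM in olfactory-marker libraries. Cacna1g averaged 121 ± 13.6, 132 ± 19.9 and 174 ± 21.7 CPM, and its classes overlapped in every pair. Per kilobase, Cacna1g made up 50.7% of the T-type sum in hindbrain-marker, 34.8% in cortex-marker and 27.0% in olfactory-marker libraries. The share of Cacna1h was 21.5%, 25.0% and 40.2%, so the leading T-type gene was Cacna1g in all 4 hindbrain-marker and Cacna1h in all 7 olfactory-marker libraries. No T-type gene led in all 3 cortex-marker libraries. Cacna1i held 52.1% in TG male 4, against 30.5% in WT male 4, where Cacna1g led, and 38.0% in WT female 2. Without TG male 4 the mean shares were 36.6% for Cacna1g and 34.3% for Cacna1i.

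Of the α2δ genes, which encode the extracellular subunits bound by gabapentin in the case of Cacna2d1 and Cacna2d2, the leading member changed with class. Cacna2d1 was at 135, 109, 101 and 109 CPM in hindbrain-marker libraries, 356, 284 and 282 CPM in cortex-marker libraries and 261 to 310 CPM, median 283 CPM, in olfactory-marker libraries. Cacna2d2 was at 147, 156, 138 and 136 CPM in hindbrain-marker libraries and 54.0, 53.2 and 62.9 CPM in cortex-marker libraries. In olfactory-marker libraries Cacna2d2 was at 50.6 to 94.0 CPM in 6 and at 170 CPM in WT male 1. Per kilobase, Cacna2d2 made up 61.8% of the α2δ sum in hindbrain-marker, 21.0% in cortex-marker and 28.5% in olfactory-marker libraries, and Cacna2d1 31.1%, 72.1% and 67.4%. In WT male 1 these genes were nearly equal, with 48.3% for Cacna2d2 and 47.4% for Cacna2d1. Cacna2d3 and Cacna2d4 were low, at 5.86 to 22.7 and 1.84 to 4.32 CPM over the 15 libraries. Cacna2d4 had 43 to 88 counts per library, and Lrtm2, which lies inside it, had 995 to 3266, so a small share of Lrtm2 reads could alter its value.

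Of the calcium channel β genes, Cacnb2 was the most even of all members at 45.1 to 58.1 CPM. Cacnb3 was at 63.0, 55.3, 69.5 and 52.2 CPM in hindbrain-marker libraries, 377, 349 and 291 CPM in cortex-marker libraries and 238 to 405 CPM, median 380 CPM, in olfactory-marker libraries. Cacnb4, mutated in the lethargic mouse, averaged 274 ± 37.2, 553 ± 164 and 386 ± 48.2 CPM in these classes. Hindbrain-marker libraries were thus low in Cacnb3 without overlap with cortex- or olfactory-marker libraries, while Cacnb4 overlapped the olfactory-marker range. The cerebellum-marker library was also low in Cacnb3, at 54.7 CPM. Per kilobase, Cacnb4 made up 54.6% of the β sum in hindbrain-marker libraries, and Cacnb3 50.8% in cortex-marker and 60.9% in olfactory-marker libraries. Cacnb1, the subunit gene of the muscle channel that is also made in brain, averaged 29.2 ± 3.91, 77.3 ± 4.69 and 44.8 ± 6.84 CPM, and it overlaps Rpl19, whose counts were 306% of its own.

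Among the γ genes the widest differences were in Cacng5 and Cacng3, both of the TARP group. Cacng5 was at 30.0, 27.8, 19.6 and 22.0 CPM in hindbrain-marker libraries, 9.06, 22.0 and 9.02 CPM in cortex-marker libraries and 126 to 294 CPM, median 264 CPM, in olfactory-marker libraries. Cacng3 was at 25.6, 23.3, 23.99 and 20.03 CPM in hindbrain-marker libraries, 135, 124 and 119 CPM in cortex-marker libraries and 38.3 to 69.6 CPM, median 54.7 CPM, in olfactory-marker libraries. Cacng5 was highest in olfactory-marker libraries without overlap, and the 3 classes did not overlap for Cacng3. Cacng2, the stargazin gene, averaged 87.5 ± 4.26, 86.0 ± 10.7 and 42.9 ± 3.02 CPM, lowest in olfactory-marker libraries without overlap. Cacng4 was at 4.93 to 14.3 CPM in all.

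Cacng7 and Cacng8 are neighbours 25.8 kb apart. Cacng7 averaged 58.3 ± 4.65 CPM in hindbrain-marker, 56.8 ± 7.28 CPM in cortex-marker and 87.2 ± 11.5 CPM in olfactory-marker libraries, whereas Cacng8, a TARP of the hippocampus and cortex, averaged 15.3 ± 2.55, 41.7 ± 4.13 and 38.2 ± 5.13 CPM. Cortex-marker libraries were thus with the low class for Cacng7 and with the high class for Cacng8. Their RefSeq windows, chr7:3332575-3332874 and chr7:3393792-3394091 (GRCm38.p6, + strand), are shown for the same contrast in CG, in capitals. The Cacng7 window follows a start inside the annotated gene.
Cacng7: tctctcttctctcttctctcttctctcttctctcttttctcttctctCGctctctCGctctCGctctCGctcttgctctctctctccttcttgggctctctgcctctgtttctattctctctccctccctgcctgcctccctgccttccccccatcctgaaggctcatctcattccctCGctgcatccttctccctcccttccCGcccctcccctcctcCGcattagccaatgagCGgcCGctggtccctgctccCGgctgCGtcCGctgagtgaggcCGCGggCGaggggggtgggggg
Cacng8: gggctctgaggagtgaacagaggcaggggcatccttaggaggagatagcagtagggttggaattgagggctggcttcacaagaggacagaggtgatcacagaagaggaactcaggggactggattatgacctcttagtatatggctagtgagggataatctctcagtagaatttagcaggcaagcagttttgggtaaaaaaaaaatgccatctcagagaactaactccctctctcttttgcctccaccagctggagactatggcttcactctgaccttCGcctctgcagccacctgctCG
The Cacng7 window holds 15 CG, and 34.6% of all windows hold at least as many, while the Cacng8 window holds 2. In both printed pairs 1 window holds 2 CG and the other holds more, but these pairs were shown for that contrast. Other members are neighbours too, such as Scn9a and Scn7a, 38.3 kb apart, whose windows hold 9 and 3 CG. Nothing follows from the 2 printed pairs about neighbours in general or about control of the genes.

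The cerebellum-marker class has 1 library and so no replicate. For 13 of the 31 genes (41.9%) it lay outside the range of the other 14, 5 above (background 18.6%) and 8 below (15.6%), beside 34.2% of all genes, so the counts were near the share over all genes. Above were Cacna1a at 300.1 CPM against 65.6 to 127 CPM in the other 14, Cacna1g at 301 CPM, Cacna2d2 at 285 CPM, Scn2b at 613 CPM and Cacng2 at 114 CPM. Below were Scn3b at 8.78 CPM against 69.1 to 286 CPM, Scn3a at 8.06 CPM, Cacna1h at 10.7 CPM, Scn7a at 2.33 CPM, Cacna2d1 at 73.3 CPM, Cacnb1 at 12.4 CPM, Cacng3 at 11.3 CPM and Cacng8 at 9.19 CPM. Cacna1a and Cacna2d2 are known to be abundant in Purkinje cells. The summed level of 10 Purkinje cell markers was 4993 CPM in this library and 231 to 743 CPM in the others. Of these markers, Pcp2 and Car8 also belong to the cerebellum list used to form the classes. The part of these markers in the Cacna1a and Cacna2d2 levels was not tested. Per kilobase, Cacna1g made up 69.9% of the T-type sum, Cacna2d2 83.3% of the α2δ sum and Cacnb4 78.1% of the calcium β sum.

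**Figure D3:**
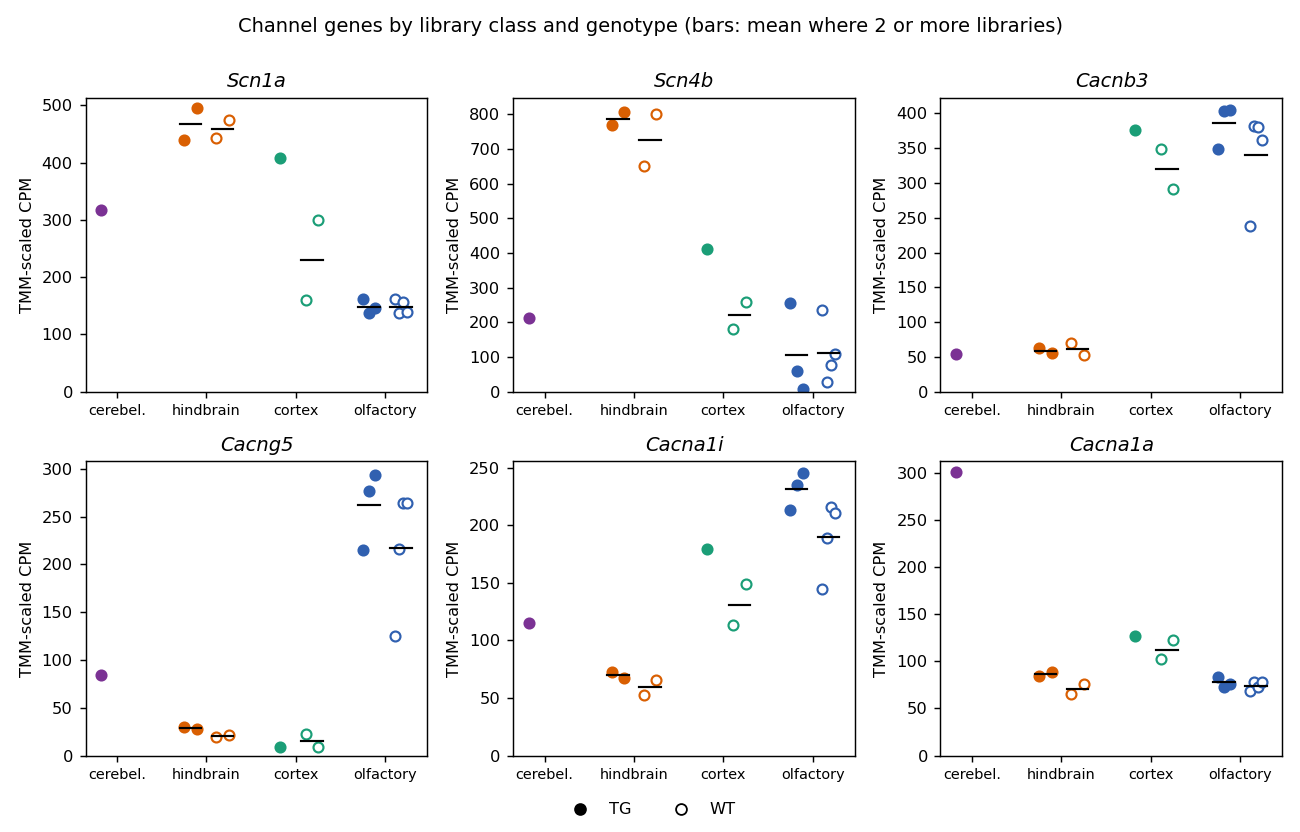
TMM-scaled CPM of 6 channel genes by library class, with TG (filled) left of WT (open) within each class and bars at the mean where 2 or more libraries exist. Cacng5 is high in olfactory-marker libraries of both genotypes, where the TG libraries span 215 to 294 CPM and the WT libraries 126 to 264 CPM.

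Between genotypes no channel gene passed the threshold of adjusted p below 0.05 in edgeR's quasi-likelihood test. Over the 15 libraries together, adjusting for sex, 0 of 31 were called, beside 0.111% of all genes (19 of 17151), and 0 of 31 had an unadjusted p under 0.05, beside 1.83%. The smallest adjusted p was 0.9999 by edgeR, and 15 of 31 log2 fold changes were positive. DESeq2 called 0 of 31 too. Libraries of different classes fall in both genotypes, and the median SE of a channel gene was 0.34 on the log2 scale. The 3 genes with the smallest p were Cacna2d4, Cacna1a and Cacnb4. Cacna1a had a log2 fold change of 0.47 ± 0.29 (SE, 7 TG and 8 WT), which became 0.10 without TG female 3, the cerebellum-marker library. Cacna2d4 had 0.30 ± 0.17. Cacnb4 had 0.33 ± 0.23, which became 0.17 without TG male 4.

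With library class as a further term the median SE was 0.11, and again 0 of 31 were called, beside 0.496% of all genes (85 of 17151). DESeq2 called 0 as well. An unadjusted p under 0.05 was reached by 5 of 31, Cacna1i, Cacna1a, Cacnb4, Cacna2d4 and Cacng7, which is 16.1% beside 8.4% of all genes. All 5 were higher in TG, and 22 of 31 fold changes were positive. Cacna1i had a log2 fold change of 0.32 ± 0.09 with an adjusted p of 0.231 in edgeR, and its 95% interval was 0.13 to 0.51. Cacna1a had 0.16 ± 0.05 (adjusted p = 0.342) and Cacnb4 0.30 ± 0.10 (adjusted p = 0.398) in the same edgeR fit, the Cacnb4 value being 0.19 without TG male 4. Over the 31 genes the fold changes ran from -0.35 to 0.37. The intervals were widest for Scn4b, from -1.29 to 1.47, so that a change of that size in Scn4b was not detectable here.

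Within the olfactory-marker libraries, 3 TG and 4 WT, edgeR called 0 of 31 (background 0.245%, 42 genes), DESeq2 called 0, and 1 had an unadjusted p under 0.05, beside 7.75% of all genes. No channel gene separated the genotypes, beside 6.78% of all genes. The unadjusted one was Cacna1i, at 213, 235 and 246 CPM in TG female 2, TG male 1 and TG male 3, against 145, 189, 216 and 211 CPM in WT male 1, WT male 2, WT female 1 and WT female 4. The groups overlapped, the log2 fold change being 0.34 ± 0.12 with an edgeR adjusted p of 0.543, and 0.23 without WT male 1. Cacna1c, at 108, 127 and 138 CPM in TG and 66.7, 107, 105 and 117 CPM in WT libraries, had 0.36 ± 0.17 (adjusted p = 0.649, edgeR), and 0.17 without WT male 1. Cacnb4 had 0.20 ± 0.12 (adjusted p = 0.689, edgeR), and 0.087 without TG male 3. WT male 1 had 657 CPM of 10 olfactory markers, against 1248 to 1649 CPM in the other olfactory-marker libraries. The part of these markers in the genotype values was not tested.

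Within the hindbrain-marker libraries, 2 TG and 2 WT, 0 of 31 were called by edgeR (background 0.07%, 12 genes) and 0 by DESeq2, while 3 had an unadjusted p under 0.05, beside 5.81% of all genes. The TG libraries lay above both WT libraries for 16 genes and below them for 1, Cacnb2, at 49.5 and 50.7 CPM in TG and 51.0 and 53.5 CPM in WT libraries. These 17 of 31 are 54.8%, beside 38.6% of all genes, and the 16 are 51.6% beside 18.7% of all genes higher in TG and 20% lower in TG without overlap. Of the 8 calcium pore genes, 7 were among the 16, and of the 6 sodium pore genes tested 1, Scn2a. Cacna2d4 was at 4.32 and 3.35 CPM in TG female 1 and TG female 4, against 1.84 and 2.14 CPM in WT male 3 and WT female 3. Its log2 fold change was 1.00 ± 0.21 with an edgeR adjusted p of 0.271, and its overlap with Lrtm2 is given above. Cacna1h, at 76.5 and 49.8 CPM in TG and 31.5 and 45.5 CPM in WT libraries, had 0.64 ± 0.25 (adjusted p = 0.777, edgeR), and 0.31 without TG female 1. Cacna1a, at 84.0 and 88.7 CPM in TG and 65.6 and 75.5 CPM in WT libraries, had 0.22 ± 0.09 (adjusted p = 0.812, edgeR). Both TG libraries were female and 1 of the WT libraries was male, the TG libraries held 15170772 and 17519704 counts and the WT libraries 24348166 and 35850998. The oligodendrocyte sum was 20425 and 17919 CPM in TG and 20609 and 23242 CPM in WT libraries. The general neuron sum was lower in TG, at 9946 and 10386 CPM against 10932 and 10801 CPM in WT libraries. The hypothalamus sum was 50.4 CPM in TG female 4 and 4.50 to 6.59 CPM in the other 3. The part of sex, depth and these markers in the direction of the channel genes was not tested.

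Within the cortex-marker libraries there was 1 TG library, TG male 4, against 2 WT libraries, and its spread was assumed to equal that of the others. edgeR called 0 of 31 (background 0.274%, 47 genes) with 7 at an unadjusted p under 0.05, beside 10.8% of all genes. DESeq2 called 2, Scn1a (adjusted p = 0.0103) and Cacnb4 (adjusted p = 0.0336), beside 2.03% of the 12828 genes for which it gave an adjusted p. Scn1a was at 409 CPM in TG male 4, against 160 and 300.3 CPM in WT male 4 and WT female 2, a log2 fold change of 0.97 ± 0.24 with an edgeR adjusted p of 0.166. Without WT male 4 it was 0.52 (adjusted p = 0.595), and without WT female 2 it was 1.35 (adjusted p = 0.0107, with 79 of all genes called). Cacnb4 was at 727 CPM in TG male 4, against 400.5 and 531 CPM in WT (0.73 ± 0.20, adjusted p = 0.212, edgeR). Scn3b was at 125 CPM in TG male 4, against 217 and 145 CPM in WT (-0.65 ± 0.19, adjusted p = 0.238, edgeR), and -0.43 without WT male 4. TG male 4 lay above both WT libraries for Scn1a and Cacnb4 and below both for Scn3b. Marker sums differed as well, since TG male 4 had 2631 CPM of oligodendrocyte markers against 4325 and 5377 CPM in WT male 4 and WT female 2, and 13006 CPM of neuron markers against 10250 and 11083 CPM. The part of this in the genotype values was not tested.

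The TG effect in hindbrain-marker libraries minus that in olfactory-marker libraries was tested directly. edgeR called 0 of 31 (background 0.0117%, 2 genes), DESeq2 called 0, and 1 had an unadjusted p under 0.05, beside 5.46% of all genes. That gene was Cacna2d4, with a difference of 1.00 ± 0.26 on the log2 scale and an edgeR adjusted p of 0.688.

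**Figure D4:**
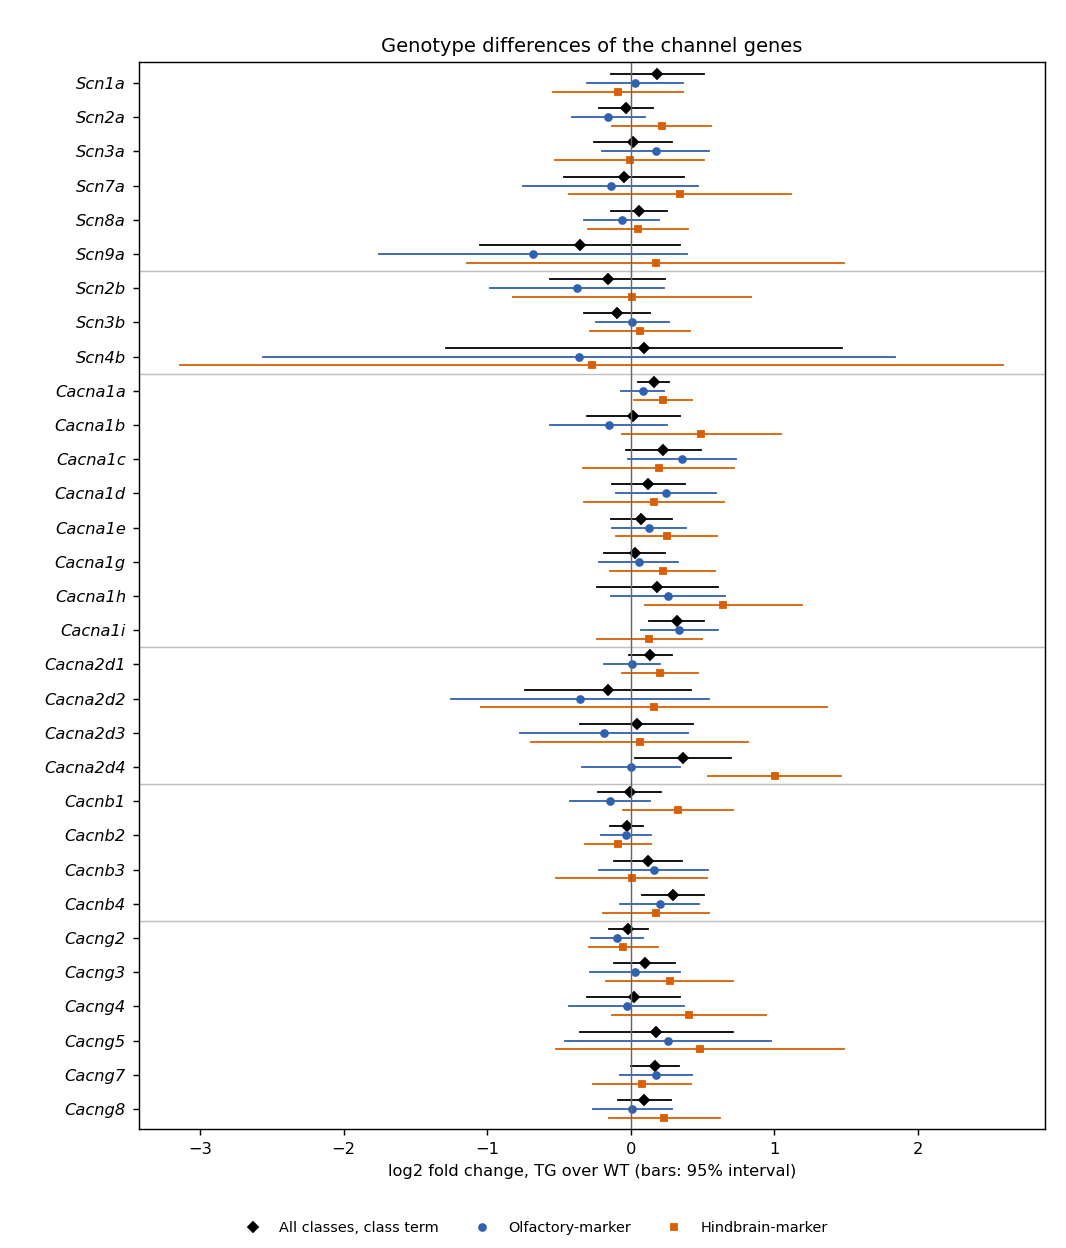
Log2 fold change of TG over WT for 31 channel genes, with 95% intervals worked out from the F statistic of edgeR. Diamonds show the fit with a class term over all 15 libraries, circles olfactory-marker and squares hindbrain-marker libraries. Most intervals include 0, and in hindbrain-marker libraries 26 of 31 point estimates are above 0.

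The 42 genes of channel partners, a list of proteins that anchor, modulate or work beside these channels, were compared by class as well. Between hindbrain- and olfactory-marker libraries 26 of 42 were separate (61.9%), beside the 50.4% of all genes. In hindbrain-marker libraries 11 were higher (26.2%, background 24.8%) and 15 lower (35.7%, background 25.7%), so the share that was higher was near that of all genes. Higher were some genes of the node and initial segment, among them Nfasc (neurofascin) at a mean of 625 CPM in hindbrain-marker and 305 CPM in olfactory-marker libraries, and Cntn2 (contactin) at 592 and 189 CPM. Others of that kind, Nrcam at 232 and 304 CPM and Sptbn4 at 193 and 218 CPM, overlapped between these classes. Lower were the AMPA receptor genes Gria1, Gria2 and Gria3, of which Gria2 averaged 342 and 1146 CPM, and the AMPA receptor auxiliary gene Cnih3, at 15.7 and 63.9 CPM. Gria4 overlapped, at 182 and 204 CPM. By genotype 0 of 42 were called by edgeR in each of the 6 comparisons, and an unadjusted p under 0.05 was reached by 0 in all 15 libraries (1.83% of all genes). It was reached by 2 with the class term (8.4%), 2 in olfactory-marker (7.75%), 2 in hindbrain-marker (5.81%) and 7 in cortex-marker libraries with their single TG library (10.8%), and by 1 for the difference between classes (5.46%). Ank3, the ankyrin that anchors sodium channels at the initial segment, had the smallest p of these with the class term, at a log2 fold change of 0.16 ± 0.06 (adjusted p = 0.446, edgeR).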

How the data were processed

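RNA was measured in 15 brain libraries. Per the labels, 250 ng of total RNA was made into stranded libraries with ribosomal RNA removed and read as pairs of 100 bp, while the molecule field names polyA RNA. The submitters' processing notes name STAR 2.7.5b, featureCounts (Subread) and the build GRCm38, and the deposited values are whole-number counts per NCBI gene ID. Strand, pair and multi-mapping settings are not given in the sources used here. Totals ran from 15170772 to 35850998 counts, and 3 counts correspond to 0.0837 CPM in the deepest and 0.198 CPM in the shallowest library, for counting error alone. Replicates are separate animals as far as the labels tell, and every pair of libraries differed by more than sampling noise (lowest chi-square per gene 6.03).

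The members and lists were chosen with earlier results of these data known. Symbols and positions came from RefSeq (GRCm38.p6), exon lengths from GENCODE, and 25 of 32 members had a promoter window. The test was edgeR 4.0.16 under R 4.3.3, using filterByExpr over the genotype-by-sex groups (17151 genes, 31 members), TMM, robust quasi-likelihood fits and Benjamini-Hochberg adjustment over all genes at 0.05. It was also run on simulated counts, which were drawn without differences between library classes and so cannot show how the test behaves with them. Models held genotype and sex, then a class term, then class-by-genotype means with sex. The typical biological coefficient of variation was 43.1%, 14.2% and 13.9% in these models, with 12, 9 and 7 residual degrees of freedom. Library classes came from Ward clustering on mean log2 CPM of 6 region lists, and log2 CPM used a prior count of 1. Errors are SD for levels and SE for fold changes. Each member is described by level, and for genotype the 3 with the smallest p per comparison are named, or those called. Of the channel partners, up to 2 with the smallest p are named by the same rule, and the region examples were chosen after their values were seen. Alternatives were DESeq2 1.42.0, median-ratio size factors, no filter, a replicate block, a non-robust fit, no sex term, single-marker classes, subsets of libraries and leaving out each library. Figures were drawn with matplotlib 3.10.9.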

Additional observations from a re-analysis of the deposited data

Results flagged for a closer look

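Within each class and genotype group of 4 to 10 libraries, the highest or lowest library was checked against the gap that Dixon's test allows. Of 124 groups examined 7 had such a library, and chance gives about 1 in 20.

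WT male 1 stood apart from the other olfactory-marker libraries in 4 genes. Its level was 20.7 CPM for Scn9a against 3.90 to 7.57 CPM in the other 6, and 170.4 CPM for Cacna2d2 against 50.6 to 94.0 CPM. It was low for Cacnb3, at 238.4 CPM against 348 to 405 CPM, and for Cacng7, at 63.1 CPM against 83.5 to 98.3 CPM. The same library had 107 CPM of 10 hypothalamus markers, against 3 to 6 CPM in the other olfactory-marker libraries. It was the lowest of its class in olfactory markers, at 657 CPM against 1248 to 1649 CPM. The same held for neuroblast markers, at 538 CPM against 953 to 1268 CPM. The part of these markers was not tested.

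Among the 7 TG libraries, the cerebellum-marker library TG female 3 was high for Cacna1a, at 300.1 CPM against 73.0 to 127 CPM. TG male 4, the only TG library with cortex markers, was high for Cacng3, at 134.7 CPM against 11.3 to 59.2 CPM, and low for Cacng4, at 4.93 CPM against 9.61 to 12.6 CPM.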

How the results depend on the processing

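No fold change of a named channel gene turned its direction under any alternative run. DESeq2 called 40 genes in all 15 libraries, 175 with the class term, 115 in olfactory-marker, 36 in hindbrain-marker and 261 in cortex-marker libraries, and 38 for the difference between classes, against 19, 85, 42, 12, 47 and 2 by edgeR. DESeq2 called 2 channel genes in cortex-marker libraries, Scn1a (0.98, adjusted p = 0.0103) and Cacnb4 (0.73, adjusted p = 0.0336), and 0 elsewhere. Without the sex term the cortex-marker count was 24 genes, and without the hindbrain- and cerebellum-marker libraries the count for all libraries was 7. With classes from 4 single markers, 2 channel genes instead of 17 separated cortex- from olfactory-marker libraries.

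Replicate numbers recur across groups. Of 21 same-number pairs 7 had correlated deviations over 0.1, the range being -0.62 to 0.91, and 4 of 15 libraries correlated best with their own number, so the numbers were not taken to pair the samples. With a replicate block 53 genes were called with the class term, 2, 1 and 1 in olfactory-, hindbrain- and cortex-marker libraries, 0 for the difference and 16 in all libraries, with 0 channel genes in each.

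Leaving out each library in turn gave 14 to 21 genes in all libraries, 56 to 86 with the class term, 18 to 35 in olfactory-marker, 4 to 8 in hindbrain-marker and 1 to 79 in cortex-marker libraries, and 0 to 3 for the difference. The cortex-marker range came from leaving out WT male 4 and WT female 2, and the smallest class-term count from leaving out TG male 4. Channel genes called were 0 throughout, except 0 to 1 in cortex-marker libraries, where Scn1a was called without WT female 2. Channel genes that separated classes were 20 to 24 for hindbrain and olfactory, 17 to 20 for cortex and olfactory and 21 to 24 for hindbrain and cortex. The lower ends equal the counts with all libraries. Leaving out a library narrows the range of its class, so these counts could rise but hardly fall, and they do not show stability. The share over all genes in the same runs is not given here. The cause of these changes was not tested. With 2 or fewer TG libraries in the hindbrain- and cortex-marker classes, small fold changes were not detectable, the median SE of a channel gene being 0.20 and 0.24.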
